A study of Mus musculus with 6 samples.

Results

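The genes described here are 10 immediate early and early response genes: Fos, Fosb, Fosl2, Jun, Jund, Egr1, Atf3, Ier2, Ier3 and Myc. They were taken as a named set, and every probe set that the platform annotation gives to any of them was followed, which came to 14 of the 12488 probe sets on the array. Total RNA of the pancreas was hybridised to 6 Affymetrix mouse arrays, 1 mouse to an array, with 3 arrays in each group. The control mice were CFTR+/+ and aged 57, 56 and 57 days in the order of replicates 1 to 3; the CFTR-/- mice, called CF here, were 57, 56 and 58 days old. All were male and gastrin+/-, so both groups lacked 1 gastrin allele, with a 95% black6 and 5% 129Sv background, and were given Peptamen from day 10 against blockage of the gut. The CFTR-/- genotype is that of the whole animal, and the labels do not name the Cftr allele. Each value is an intensity, in array units, on a linear scale; no depth applies, and the 3 arrays per group limit the precision.

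Immediate early genes are transcribed within minutes of a stimulus from factors already present in the cell, such as serum response factor and CREB, which MAP kinases and calcium signals activate. Fos and Jun proteins pair through leucine zippers to form AP-1, which binds DNA elements of the type TGANTCA; Atf3 can join such pairs, and Egr1 binds GC-rich elements of the type GCGNGGGCG through zinc fingers. Their transcripts are short-lived, and in the pancreas they are known to rise after secretagogue stimulation, injury and the handling of the tissue itself.

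Of the 9 genes bright enough to be tested, 0 differed between the CF and the control pancreas past the threshold, an adjusted p of 0.05 in limma with Benjamini-Hochberg adjustment over all 7739 probe sets tested. A pair of patterns stood in the values. Jund, the brightest of the genes, read lower on all 3 CF arrays than on all 3 control arrays, at a mean of 3660 ± 795 against 5561 ± 685 (intensity, mean ± SD, n = 3 per group). The brighter Egr1 probe set and the first Fos probe set differed far more between mice of the same genotype than between genotypes, and were lowest in replicate 2 of each group.

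RefSeq (GRCm38.p6) gave the promoter of 7 of the 10 genes, from 250 bases before to 50 after the annotated start. The promoters of Fos and its close relative Fosb are shown because the first Fos probe set varied widely between mice of 1 genotype and Fosb, which is induced by the same kinds of stimulus, did not follow it on every array. The Fos window lies at chr12:85473640-85473939 on the plus strand and the Fosb window at chr7:19309996-19310295 on the minus strand; both are written 5′ to 3′ along the gene, with every match to a searched motif in capitals.
Fos: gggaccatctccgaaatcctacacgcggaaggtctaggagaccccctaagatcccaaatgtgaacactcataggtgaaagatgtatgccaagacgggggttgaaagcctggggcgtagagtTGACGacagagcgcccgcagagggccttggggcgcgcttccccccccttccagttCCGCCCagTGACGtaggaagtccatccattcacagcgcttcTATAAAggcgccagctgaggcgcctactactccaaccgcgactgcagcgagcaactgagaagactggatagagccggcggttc
Fosb: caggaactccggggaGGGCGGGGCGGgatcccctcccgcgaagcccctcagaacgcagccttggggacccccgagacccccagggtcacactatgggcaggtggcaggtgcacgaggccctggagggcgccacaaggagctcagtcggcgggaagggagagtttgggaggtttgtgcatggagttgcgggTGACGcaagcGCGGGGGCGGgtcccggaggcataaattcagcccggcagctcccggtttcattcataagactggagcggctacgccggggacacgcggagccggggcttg
The motifs searched on both strands were the TATA element TATAAA, the GC box motif GGGCGG, the motif CGTCA (1 arm of the cAMP response element), the AP-1 motif TGANTCA, the Egr motif GCGNGGGCG and the CArG box of serum response factor. The Fos window held TATAAA beginning 33 bases before the start. Anywhere in the window, on either strand, TATAAA occurred in 13.6% of all 32851 promoters of this length. The shares of the other motifs were counted in the same way, whatever the position. The Fos window also held CGTCA on the opposite strand, beginning 66 and 129 bases before the start, and a GC box. CGTCA was found in 20.8% of promoters and the GC box in 35.7%. The Fosb window held 3 GC boxes, CGTCA on the opposite strand beginning 60 bases before the start, and GCGNGGGCG beginning 50 bases before it, which overlaps 1 of the GC boxes and occurs in 5.55% of promoters. Neither window held TGANTCA (7.81% of promoters) or a CArG box (1.63%), which says only that these letters are not in the windows.

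**Figure D1:**
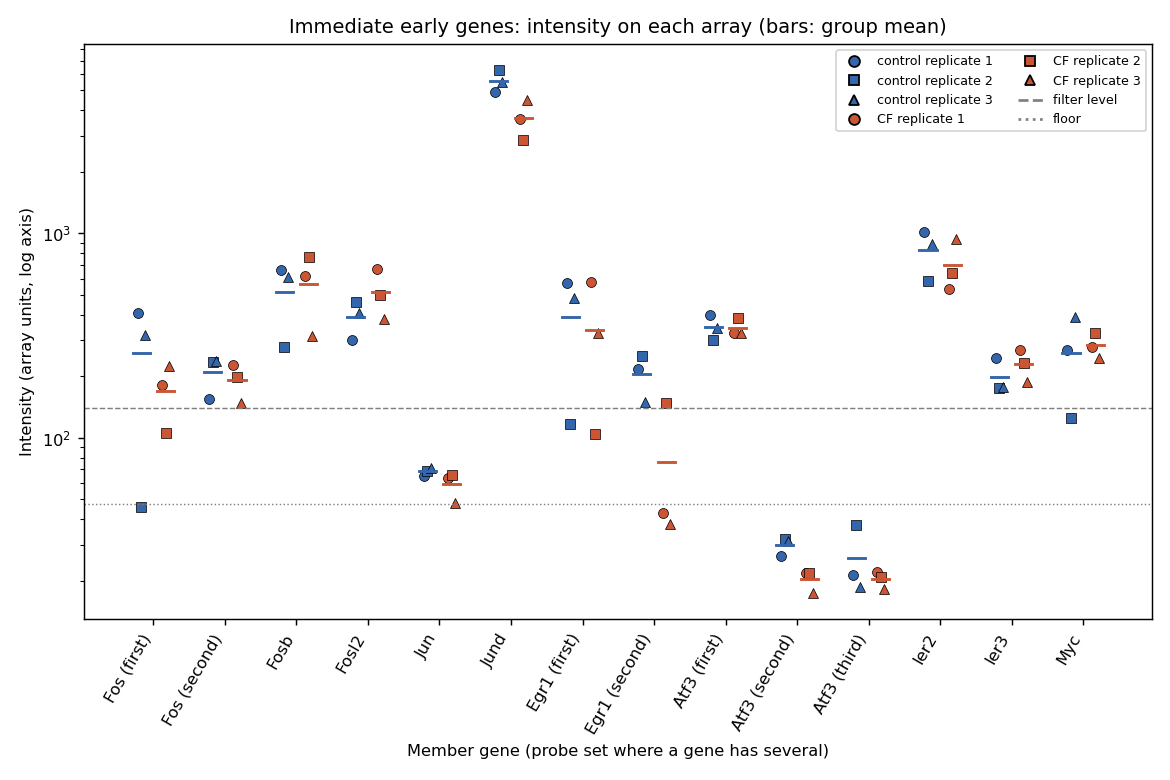
Intensity (log axis) of the 14 probe sets on each array, with controls in blue, CF in orange, the symbol giving the replicate and the bar the group mean; probe sets of 1 gene are ordered by brightness. The Jund points do not overlap between groups (2872.8 to 4462.7 in CF, 4920.0 to 6282.8 in controls), and the squares of replicate 2 are the lowest for the brighter Egr1 probe set in both groups.

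A probe set was tested if at least 3 of 6 arrays read above 140.2, the 40th percentile of all values; 11 of the 14 probe sets, covering 9 of the 10 genes, met this. Values under 47.6, the 20th percentile, were set to it before taking log2, and all differences below are CF minus control on that log2 scale. Of the 11 tested probe sets, 4 had a higher and 7 a lower mean log2 value in CF, with a median difference of -0.13 beside 0.00 for all probe sets tested. Fos and Egr1 count with 2 probe sets each there; with the brightest probe set of each gene the median was -0.004. Limma called 0 of the 11, against 5 of 7739 over the array (0.0646%). At an unadjusted p under 0.05 there were 2 of 11, beside 571 of 7739 (7.38%). The groups did not overlap for 2 of 11 with CF lower, beside 5.62% of all probe sets tested, and for 0 of 11 with CF higher, beside 7.37%. The adjusted p-values of the 11 ran from 0.47 to 1.00 in limma.

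Fos encodes the founding Fos protein, which enters AP-1 only as a partner of a Jun protein. Its first probe set read 410.0, 45.8 and 320.0 in control replicates 1 to 3 and 182.0, 105.4 and 223.3 in CF. The groups overlapped, and the lowest array of each was replicate 2, which in the controls lay under the floor of 47.6. The difference was -0.18 ± 0.78 (SE; 95% interval -1.96 to 1.59; adjusted p = 0.97, limma), so changes of over 2-fold in either direction lie within the interval. The second Fos probe set read 154.7, 233.8 and 238.5 in controls and 225.8, 199.0 and 147.9 in CF. It was low on other arrays than the first, with a difference of -0.13 ± 0.37 (adjusted p = 0.96, limma), and the 2 probe sets did not show the same order of mice.

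Fosb encodes a related protein that pairs with Jun proteins in the same way. It read 659.6, 277.0 and 614.8 in controls and 620.6, 763.6 and 314.3 in CF. A single array in each group stood low, replicate 2 of the controls and replicate 3 of the CF mice, and the groups overlapped almost wholly (0.14 ± 0.43; interval -0.83 to 1.11). Fosl2 encodes Fra-2, a Fos protein that lacks the strong activating region of Fos. Its values were 299.6, 463.0 and 407.6 in controls and 667.0, 499.9 and 379.9 in CF. The 2 highest arrays were CF and the lowest was a control, but the third CF array lay inside the control range, and the difference of 0.39 ± 0.29 (interval -0.28 to 1.05; adjusted p = 0.82, limma) did not pass.

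Jund encodes the Jun protein that most tissues carry without stimulation. Its mean intensity exceeded that of 97.6% of all probe sets on the array, whereas the other tested probe sets of these genes lay between 38.8% and 79.2%. The controls read 4920.0, 6282.8 and 5479.0, and the CF mice 3643.1, 2872.8 and 4462.7. Every CF value lay below every control value, with 4462.7 the nearest to the control range. The difference was -0.62 ± 0.19 (interval -1.05 to -0.18), a ratio of 0.651, with an unadjusted p of 0.011 that became 0.47 after adjustment in limma. Of all probe sets tested, 2.2% had a smaller p. By title suffix, which names 3 mice in each group, the log2 differences were -0.43, -1.13 and -0.30. As the groups did not overlap, any pairing of the arrays would give a lower CF array in each pair, so these signs add no support. Jun itself, the founding member of its family, was dim: it read 65.3, 68.8 and 71.4 in controls and 63.9, 65.8 and 48.0 in CF, never above the level needed for testing. Brightness also depends on the probes, so the order of Jund and Jun in brightness is not an order of transcript abundance.

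Atf3 encodes a stress-induced factor that binds DNA alone or with Jun proteins. Its bright probe set read 398.6, 299.7 and 344.3 in controls and 323.8, 385.8 and 326.5 in CF, the closest match of groups among the tested probe sets (0.00 ± 0.25; interval -0.58 to 0.57). By the array's naming scheme the letter f in its identifier marks probes shared within a family of sequences, so this level may not be that of Atf3 alone. The other 2 Atf3 probe sets never reached the floor of 47.6: they read 17.5 to 32.0 and 18.2 to 37.5 over the 6 arrays. Levels that low carry no order.

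**Figure D2:**
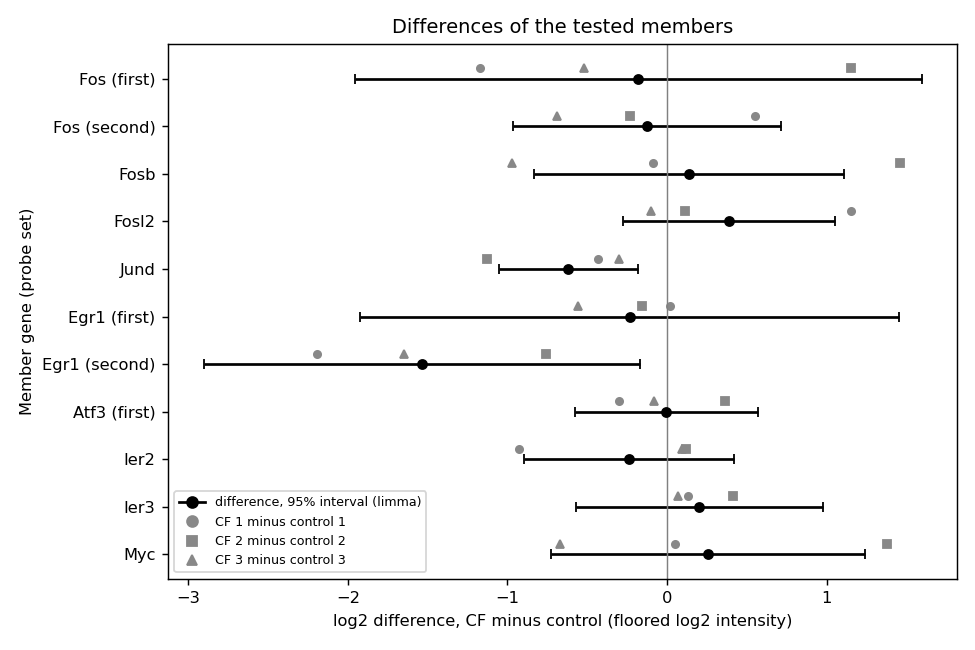
Difference between CF and control (log2, CF minus control) of the 11 tested probe sets, with black points and bars for the limma estimate and its 95% interval and grey symbols for each CF array minus the control array of the same title suffix. Jund (-0.62) and the dimmer Egr1 probe set (-1.54) are the probe sets whose intervals lie below 0 before adjustment over all probe sets.

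Egr1 encodes a zinc finger factor induced by the same signals as Fos. The first, brighter probe set read 572.4, 116.3 and 483.4 in control replicates 1 to 3 and 578.6, 104.2 and 327.3 in CF replicates 1 to 3. Replicate 2 was lowest in both groups, and the highest array was 4.92 times the lowest among controls and 5.55 times among CF mice. Between the genotypes the difference was only -0.24 ± 0.74 (interval -1.92 to 1.45; adjusted p = 0.97, limma). The second, dimmer probe set behaved otherwise. Control replicates 1 to 3 read 216.9, 251.0 and 149.8, and CF replicates 1 to 3 read 42.9, 147.9 and 37.7. Here the groups did not overlap, though the highest CF value, 147.9, lay next to the lowest control value, 149.8; the 3 control arrays and CF replicate 2 read above the filter level. The CF mice were lower by a log2 difference of -1.54 ± 0.60 (interval -2.90 to -0.17; unadjusted p = 0.032, adjusted p = 0.65, limma). That size depends on the floor, being -0.50 with a floor at the 40th percentile. The letter i in its identifier marks a probe set with fewer probes than usual, and the 2 Egr1 probe sets disagree both in the order of the mice and in the size of the difference, so no single statement on Egr1 follows from them.

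Ier2 and Ier3 are short proteins named for their rapid induction; Ier2 acts in the nucleus and Ier3 is known for its effects on cell survival under stress. Ier2 read 1019.8, 586.0 and 881.8 in controls and 535.2, 637.7 and 938.9 in CF. CF replicate 1 and control replicate 2 were the lowest arrays, and the groups overlapped (-0.24 ± 0.29; interval -0.90 to 0.42). Ier3 read 245.2, 174.6 and 177.4 in controls and 267.4, 231.6 and 186.5 in CF, a narrow range with a difference of 0.20 ± 0.34 (interval -0.57 to 0.97). Myc, which encodes a growth-promoting factor that works as a dimer with Max, read 268.6, 124.7 and 390.3 in controls and 278.9, 324.6 and 245.6 in CF. The control arrays held both the highest and the lowest Myc value, and the CF arrays lay between them (0.26 ± 0.43; interval -0.73 to 1.24).

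The median SE of the difference was 0.37 for the 11 probe sets and 0.29 for all 7739. Limma adjusts each SE by an intensity trend, so these medians also depend on brightness and do not measure the spread between mice alone. The lowest array was replicate 2 of the controls for the first Fos probe set, Fosb, the bright Atf3 probe set, Ier3 and Myc. For Ier3 the margin was narrow (174.6 against 177.4 in control replicate 3). Replicate 2 of the CF mice was lowest for the first Egr1 probe set and Jund. Among the controls, some probe sets went the other way. Replicate 2 was the highest control for Jund (6282.8), Fosl2 (463.0) and the dimmer Egr1 probe set (251.0). Replicate 2 of both groups carries the title suffix B, replicate 3 the suffix P, and replicate 1 none; the labels do not say what the suffixes stand for. In a model with genotype and suffix, chosen after the values were seen, the suffix had an unadjusted p of 0.00061 for the first Egr1 probe set and 0.034 for the first Fos probe set, 2 of 11 probe sets, beside 13.3% of all probe sets tested. After adjustment limma called 0 of 11 and 0 of 7739 (0%) for the suffix, with 1028 of 7739 at an unadjusted p under 0.05, and the adjusted p was 0.29 for Egr1 and 0.37 for Fos. With the suffix as a replicate block, the SE of the genotype difference of that Egr1 probe set fell from 0.74 to 0.26, while the difference stayed at -0.24 (adjusted p = 0.77, limma). The number of probe sets called over the whole array was 10 with the replicate block against 5 without it, and 0 of the 11 described here in either fit.

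**Figure D3:**
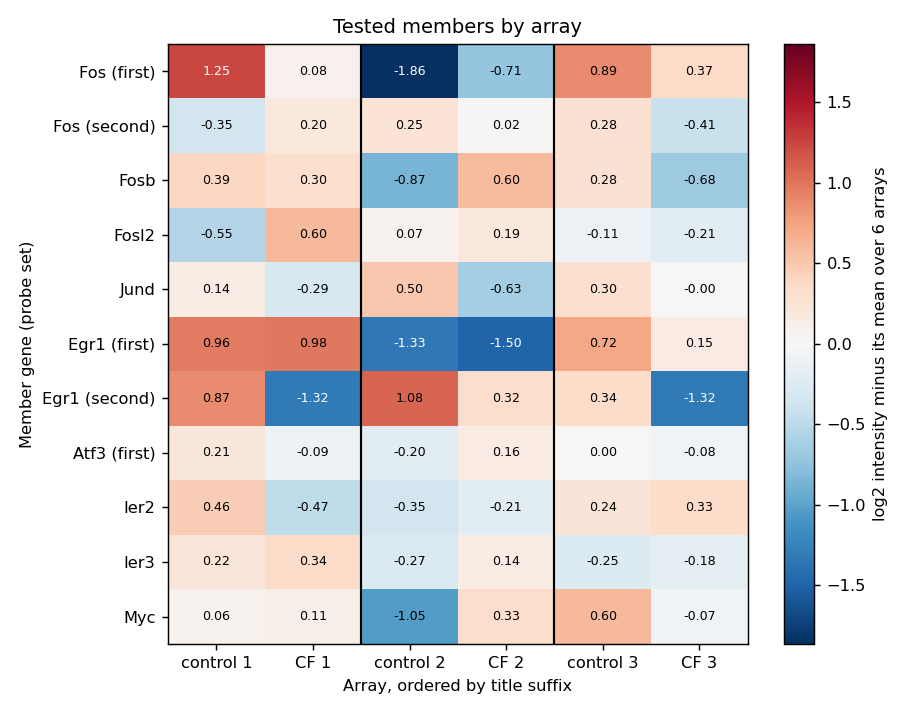
Log2 intensity of the 11 tested probe sets minus their mean over the 6 arrays, with arrays ordered so that control and CF of the same title suffix stand side by side and red above, blue below the mean. Egr1 (first) and Fos (first) are blue on both replicate 2 arrays, while Jund is red on all 3 control arrays and at or below its mean on all 3 CF arrays.

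Averaged over the brightest tested probe set of each of the 9 genes, the log2 level relative to the mean of the 6 arrays was 0.35, -0.60 and 0.30 in control replicates 1 to 3 and 0.17, -0.18 and -0.04 in CF. Replicate 2 was the lowest array in each group. The genes did not all follow this average: over 6 arrays the first Fos probe set correlated with the average of the other genes at r = 0.91, the first Egr1 probe set at 0.75 and Myc at 0.70, but Jund at -0.25 and Fosl2 at -0.38. These correlations describe 6 arrays of 2 genotypes and share the arrays' scaling. By Pearson correlation with the average over the same 6 arrays, the genes outside the set most like it were Zxda (r = 0.988), Rcn1 and Vps26a (each 0.987), and Nrep and Gng10 (each 0.986). The genes most opposed were Ptprcap (r = -0.998), Sf3a1 (-0.998) and Chd1 (-0.995). These are the extremes of 7739 probe sets over only 6 arrays, and no relation to the set was tested.

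Markers of other cells and signs of RNA quality also varied between the arrays. Acinar genes were bright throughout: the 8 of 13 listed acinar genes on the array summed to 578000 to 800000 in controls and 548000 to 604000 in CF. The average log2 level of the 7 tested acinar genes, relative to the mean of the 6 arrays, was -0.10 to 0.37 in controls and -0.18 to -0.04 in CF. Both measures overlapped between the groups. All 7 had a lower mean log2 value in CF (median difference -0.24), and limma called 0. Among 8 adipocyte markers, 6 were on the array and 0 stayed under the floor on all arrays; their summed intensity was 11700, 1580 and 5430 in control replicates 1 to 3 and 3170, 1620 and 1940 in CF. The adipocyte sum was thus lowest in replicate 2 of each group, as were the first Egr1 probe set and the first Fos probe set. This was not particular to fat: the sums of fibroblast and stellate, lymphocyte and duct markers were lowest there too. By average log2 level, the adipocyte, fibroblast and stellate, and macrophage lists were lowest in replicate 2 of each group. The acinar sum was instead highest in replicate 2 of each group (800000 and 604000). The ratio of the 3′ to the 5′ Gapdh probe set, a sign of RNA quality, was 1.45 in control replicate 2 and 0.723 to 0.873 on the other 5 arrays. It thus stood apart only on the array where the first Fos probe set, Fosb, the bright Atf3 probe set, Ier3 and Myc were lowest. Jund and the dimmer Egr1 probe set were highest on that array. The Actb ratio was 2.16 and 2.14 in the replicate 2 arrays and 1.74 to 1.94 on the others. The part of fat tissue, of the other cells marked by these lists and of RNA quality in the Egr1 and Fos values was not tested.

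Levels of other marker lists, of which limma called 0 markers, are given beside those of Jund and the dimmer Egr1 probe set both as summed intensity, which the brightest markers carry, and as the average log2 level of the tested markers relative to the mean of the 6 arrays. Smooth muscle markers, 6 of 6 on the array, summed to 1220 to 2010 in controls and 821 to 877 in CF, and their average over 3 tested markers was -0.02 to 1.01 and -0.52 to -0.42. Among these, Acta2 was lower on all 3 CF arrays, while Tagln and Des overlapped between the groups. Mesothelial markers, 3 of 5 on the array, summed to 1500 to 1810 and 1020 to 1310, with averages of 0.01 to 0.56 and -0.65 to -0.01. For these 2 lists neither measure overlapped between the groups. Fibroblast and stellate markers, 10 of 11 on the array, overlapped in their sum (13000 to 18300 and 11000 to 14300) but not in their average (-0.03 to 0.56 and -0.41 to -0.13). Duct markers, 10 of 13, likewise overlapped in their sum (15600 to 21100 and 19300 to 23900) but not in their average, which was higher in CF (-0.30 to -0.10 and 0.13 to 0.25). Of 9 tested duct markers, 4 did not overlap between groups, with CF higher, beside 7.37% of all probe sets tested. These 4 were the epithelial factor Elf3 (0.92 ± 0.16, adjusted p = 0.11 in limma), Krt18, Cldn4 and Epcam. The other tested duct markers overlapped between groups. Among them, Krt8 and Krt19 (each 0.04) and Muc1 (0.13) differed little, and Cldn3 (-0.18) and Car2 (-0.09) were lower in CF on average. The endothelial list, 7 of 8, did not overlap in its sum (2050 to 2530 and 1410 to 1940) but did in its average (-0.10 to 0.27 and -0.30 to 0.19). Both measures overlapped for macrophage markers (10 of 10; sums of 11800 to 16900 and 11200 to 13200), lymphocyte markers (10 of 11; 5250 to 10800 and 2910 to 6550) and islet markers (8 of 10; 19200 to 77700 and 22400 to 59500). Of the markers of these lists on the array, only Cd3d stayed under the floor on all arrays. Whether these cells bear on the Jund and Egr1 values was not tested. In RNA of whole tissue, fewer cells of a type and less RNA per cell cannot be told apart.

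Around these genes, 8 lists of partners, regulators and targets held 163 genes, of which 98 were tested. Of these, 49 were higher and 49 lower in CF, with a median difference of 0.00 and 0 called by limma. An unadjusted p under 0.05 in limma was found for 12 of the 98, beside 7.38% of all probe sets tested. Each gene entered by its brightest tested probe set. Medians are set beside 0.00 for all probe sets tested, and no list is called different from the rest.

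Of 20 listed AP-1 proteins and dimer partners, 14 were tested, with 9 higher and 5 lower in CF and 0 called (median 0.17). Junb, a Jun protein that is itself an immediate early gene, read 719.0, 241.2 and 438.8 in controls and 1007.6, 932.2 and 694.0 in CF for the brighter of its probe sets. CF values were higher apart from a single crossing, of CF replicate 3 and control replicate 1, and the difference was 1.03 ± 0.38 (adjusted p = 0.60, limma). Its dimmer probe set separated the groups: it read 167.9, 111.2 and 80.3 in controls and 515.0, 501.1 and 496.1 in CF. Its difference was 2.14 ± 0.35 with an adjusted p of 0.099 in limma. This Junb probe set, like the dimmer Egr1 one, carries the letter i, which marks fewer probes than usual. For the Junb probe set, the 3 CF arrays and 1 control array read above the filter level. This probe set was looked up after the brighter one had been read. Over 17 alternatives its difference stayed between 1.76 and 2.42, and its adjusted p ran from 0.047, with the floor at the 40th percentile, to 0.50. In the main model the Junb probe sets and the Jund probe set, of genes of the same family, pointed in opposite directions, though none passed. Mafg, a small Maf protein, differed by 0.61 ± 0.55 on its brighter probe set and by 1.52 ± 0.45 on its dimmer one (adjusted p = 0.44, limma), which met the filter only through its CF arrays. Maf and Mafk differed by 0.46 ± 0.57 and 0.17 ± 0.22.

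Of 6 Egr relatives and corepressors, 4 were tested, 1 higher and 3 lower (median -0.35; 0 called). Nab1, which represses Egr proteins, read 1369.9, 1432.9 and 2474.3 in controls and 936.0, 955.6 and 1936.1 in CF. Replicate 3 was the highest in both groups, and the difference was -0.50 ± 0.33. Wt1, a zinc finger factor that is also a mesothelial marker, did not overlap between groups (-0.91 ± 0.36; adjusted p = 0.65, limma). Egr2 and Nab2 differed by -0.20 ± 0.63 and 0.04 ± 0.52.

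Among 40 other immediate early genes, 25 were tested, 12 higher and 13 lower (median -0.11, 0 called). At an unadjusted p under 0.05 in limma there were 6 of 25, in both directions, beside 7.38% of all probe sets tested. Socs3, the feedback inhibitor of cytokine receptors, read 129.0, 54.5 and 201.0 in controls and 491.0, 348.2 and 467.6 in CF, with no overlap (1.94 ± 0.49; adjusted p = 0.30, limma). This Socs3 probe set, like the bright Atf3 one, carries the letter f, so its level may not be that of Socs3 alone. The control values of 129.0 and 54.5 lay below the filter level. Zfp36, which destabilises AU-rich transcripts, read 520.1, 157.5 and 238.1 in controls and 1131.4, 1820.9 and 448.4 in CF (1.86 ± 0.56; adjusted p = 0.47, limma). Both read higher in CF on average, and replicate 2 was the lowest control for each. In the other direction, the MAP kinase phosphatase gene Dusp2 read 2896.5, 2718.1 and 1884.3 in controls and 1497.2, 784.2 and 1253.3 in CF (-1.11 ± 0.27; adjusted p = 0.27, limma). Klf4, an epithelial zinc finger factor, read 782.1, 444.0 and 772.9 in controls and 314.5, 249.5 and 429.2 in CF (-0.998 ± 0.32; adjusted p = 0.50, limma). Dusp2 and Klf4 did not overlap between groups, with CF lower.

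Upstream, 4 of 11 serum response and CREB factors were tested, 1 higher and 3 lower (median -0.63; 0 called). The serum response factor coactivator Mrtfa differed by -1.32 ± 0.59, and the Ets factors Elk4, Ets2 and Ets1 by -1.02 ± 0.47, -0.23 ± 0.24 and 0.21 ± 0.23. Mrtfa read above the filter level on all control arrays but only on replicate 2 of the CF arrays. Elk4 read above it on every array but CF replicate 2 (69.7). Of 31 genes of the MAP kinase cascade, 15 were tested, 10 higher and 5 lower (median 0.04; 0 called). Mapkapk2, a kinase downstream of p38, read 1155.7, 1214.6 and 1535.5 in controls and 1852.0, 2067.0 and 1897.8 in CF, with no overlap (0.58 ± 0.17; adjusted p = 0.44, limma). Map2k4, Map3k1 and Map2k2 differed by -0.32 ± 0.20, 0.38 ± 0.38 and 0.27 ± 0.30.

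Downstream, 9 of 21 AP-1 target genes were tested, 2 higher and 7 lower (median -0.15; 0 called). The higher pair were the metallothionein genes Mt1 (0.37 ± 0.13) and Mt2 (0.53 ± 0.24), which bind metals, and the groups did not overlap for either. The cyclin gene Ccnd1 differed by -0.76 ± 0.39 and by -0.63 ± 0.26 on its second probe set, and Vegfa, an angiogenic factor gene, by -0.90 ± 0.69. Of 10 genes of the Myc dimer network, 7 were tested, 4 higher and 3 lower (median 0.19; 0 called), with Mycl at 1.09 ± 0.42, Mlx at 0.36 ± 0.16, Mxd4 at -0.50 ± 0.28 and Mxi1 at -0.32 ± 0.22. Mycl read above the filter level on all CF arrays but only on replicate 2 of the controls. Among 24 Myc targets, 20 were tested, 10 higher and 10 lower (median 0.02; 0 called). Ldha, the lactate dehydrogenase subunit gene, read 2418.8, 1669.0 and 2823.6 in controls and 4268.9, 3497.4 and 4265.4 in CF, with no overlap (0.83 ± 0.21; adjusted p = 0.31, limma). Hspd1, Cad and Rrs1 differed by 0.40 ± 0.19, 0.84 ± 0.44 and 0.52 ± 0.28.

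**Figure D4:**
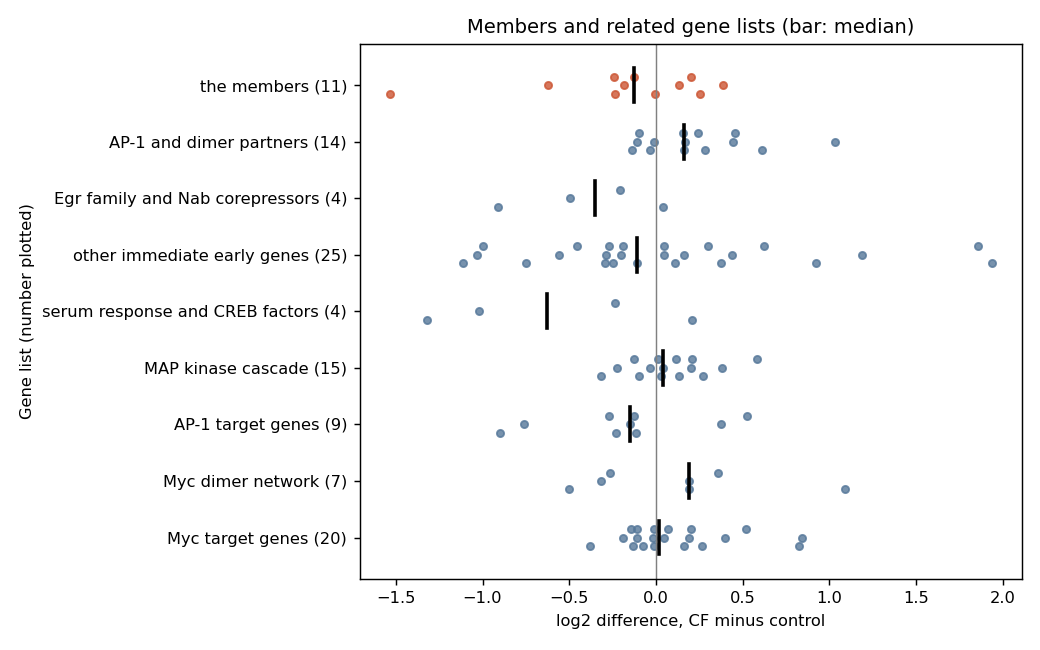
Difference between CF and control (log2, CF minus control) of the 11 tested probe sets and of each tested gene of the 8 related lists, with 1 point per probe set or gene and a bar at the median. The medians lie between -0.63 (serum response and CREB factors, 4 genes) and 0.19 (Myc dimer network, 7 genes), and the highest points among other immediate early genes are Socs3 (1.94) and Zfp36 (1.86).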

How the data were processed

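Pancreas total RNA (TRIzol, per the labels) was hybridised to 6 Affymetrix MG-U74Av2 arrays. The deposited table holds 1 linear intensity per probe set and array; the method and scaling the authors used are not stated in the sources used here. All array means after trimming 2% at each end were 500.3, so no further scaling was applied. Array medians were 207.8 to 234.4, and 0 values lay at or below 0.

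Groups came from the genotype in the descriptions and replicate numbers from the title suffix (none, B, P). Probe sets with 1 symbol (10855 of 12488) were named; 396 had several symbols and 1237 none. The 66 control probe sets were left out. Values below 47.6, the 20th percentile of all values, were raised to it, log2 was taken, and 7739 probe sets with at least 3 arrays above the 40th percentile (140.2) were fitted in limma 3.58.1 (R 4.3.3; lmFit and eBayes with an intensity trend, no block). P-values were adjusted by Benjamini-Hochberg over all of them, and all adjusted p-values are from limma. Each array held 1 mouse, and p-values measure the spread between mice plus that of the measurement. The fit was tested on simulated data.

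Arrays deviated from their group means together where they shared a suffix (r = 0.23 to 0.26 between control and CF) and not otherwise (r = -0.18 to -0.05). Every same-suffix pair was over 0.1, so the suffix was treated as a possible pairing of the samples. Deviations from a group mean cancel out within the group, so positive values for shared suffixes force negative ones among the other pairs. These correlations therefore do not establish that the suffix pairs the mice, and the labels do not say what it stands for. Differences and p-values come from the main model, which has no term for the suffix, and a second model with it as a replicate block is given where it changed a count. The genes and lists were chosen with earlier results of these data known. From each pathway list, up to 4 genes with the smallest p were named, and, by correlation with the average of the set, the 5 most like it and the 3 most opposed; further probe sets of named genes were read later. Alternatives covered scaling, floor, filter, variance model, array weights, the block, 1 probe set per gene, each array left out and, added after seeing the data, each suffix left out. Promoter sequences are from RefSeq tables of GRCm38.p6.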

Additional observations from a re-analysis of the deposited data

How the results depend on the processing

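Under the 18 alternatives limma called 0 of the probe sets of the 10 genes, and their lowest adjusted p was 0.29. Jund (-0.78 to -0.36), Ier3 (0.08 to 0.36) and the dimmer Egr1 probe set (-2.09 to -0.50) kept their direction wherever they were tested, and Fosl2 ranged from 0.00, with both suffix-free arrays left out, to 0.63. Of 188 single values, 19 changed sign. With 1 array left out, the first Fos probe set ranged from -1.16 to 0.41, the brighter Egr1 probe set from -0.96 to 0.45, Fosb from -0.26 to 0.51, Myc from -0.20 to 0.62, Atf3 from -0.11 to 0.10 and the second Fos probe set from -0.33 to 0.05. The Fos value of 0.41 was that without control replicate 1 and the Egr1 value of 0.45 that without CF replicate 2, and the Fosb and Myc values of -0.26 and -0.20 those without control replicate 2. The median over the tested probe sets ranged from -0.26 to 0.19 with 1 array left out, the latter without control replicate 1. With both suffix-free arrays left out that median was 0.11, Atf3 0.14 and Ier2 0.11; with both suffix P arrays left out, the median was 0.16, Atf3 0.03 and the second Fos probe set 0.16; with both suffix B arrays left out, Fosb was -0.53 and Myc -0.31. The cause was not tested.

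Over the whole array, where 5 probe sets were called, the number was 10 with the floor at the 40th percentile, 0 with no filter, 3 with no intensity trend, 12 with array weights, 10 with the replicate block, 1 to 10 with 1 array left out, 1 without both suffix-free arrays and 3 without both suffix B arrays. With no filter, which tests the dim probe sets too, the difference of Jun was -0.22 ± 0.14 (adjusted p = 0.86). Low signal limits Jun and 2 of the Atf3 probe sets; 1 control array of the first Fos probe set and 2 CF arrays of the dimmer Egr1 probe set lay under the floor, so the size of their differences depends on where the floor is set.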
